A study of Homo sapiens with 3 samples.

Results

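The ribosomal RNA (rRNA) genes of chromosome 21 and the U3 small nucleolar RNA (snoRNA) genes of chromosome 17 were examined in RNA immunoprecipitates of Flag-tagged focal adhesion kinase (FAK). Transcripts were chosen by position. They had to lie on chromosome 21 between 8200000 and 8450000, the ribosomal DNA locus, or to overlap 19063901 to 19190251 on chromosome 17, the SNORD3 locus. Of 334 transcripts listed as lncRNAs, 6 met this rule, 3 at each locus. The cells were MDA-MB-231, an established line from a human triple negative breast cancer, labelled p53-mutant and transfected with plasmids for FLAG-tagged FAK. Cells of all 3 libraries are labelled as expressing the tagged protein. The Flag-FAK library held RNA retrieved with the anti-FLAG antibody, the IgG library RNA retrieved with normal mouse IgG, and the Input library, labelled 10% input, RNA without precipitation. Each condition was 1 library, so no spread between replicates and no p-value can be given, and the comparisons describe the libraries rather than the conditions. FAK was exogenous, and neither its own transcript nor protein-coding markers of the cell line were analysed here.

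A ribosome needs 18S rRNA in its small subunit and 5.8S and 28S rRNA in its large subunit. RNA polymerase I transcribes these as one long 45S precursor in the nucleolus, which is then cut into the mature molecules. U3, the product of the SNORD3 genes, is a box C/D snoRNA that base-pairs with the precursor and is required for the cuts that release 18S rRNA. Most box C/D snoRNAs are cut from introns of host genes and guide methylation of rRNA, whereas U3 genes have their own promoters and serve in processing. Mature rRNA makes up most of the RNA of a cell, and U3 is among the most abundant snoRNAs.

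At the ribosomal DNA locus 1 transcript was listed on the plus strand and 2 on the minus strand. Positions are those of the deposited files, for which the submitters' processing notes name the GRCh38 build. RefSeq genes are those of GRCh38.p14, and all 33 transcripts that carry a RefSeq gene symbol lay on that gene. The plus-strand transcript, with no database name, ran from 8209614 to 8255663, a span of 46.05 kb. It began 17 bp before the 18S gene RNA18SN2 and ended 41 bp before the end of the 18S pseudogene RNA18SP5, and RNA5-8SN2 and RNA28SN2 lay wholly within it. In this unit RefSeq lists RNA18SN2, RNA5-8SN2 and RNA28SN2 at rising positions, the order of transcription, so the plus strand carries the rRNA sense. Both minus-strand transcripts, also unnamed, started at 8218527, inside the last 415 bp of RNA28SN2. One ended at 8257974 and spanned 39.4 kb. The other ended at 8446613, 41 bp beyond the 45S precursor gene RNA45SN1, and spanned 228 kb, with the units of RNA45SN3 and RNA45SN1 wholly inside. Both were thus listed antisense to the rRNA genes that they overlap.

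At the SNORD3 locus NONHSAT146422.2 was listed on the plus strand from 19061928 to 19188282, a span of 126 kb. It began 16 bp inside SNORD3B-1 and ended 50 bp beyond SNORD3A. NONHSAT146423.2 lay on the minus strand from 19063901 to 19190251, also 126 kb, with its ends 19 bp outside SNORD3B-2 and 6 bp outside SNORD3C. An unnamed minus-strand transcript shared that end, started at 19111627, 793 bp before SNORD3D, and spanned 78.6 kb. RefSeq lists each U3 gene here at 217 bp, and the protein-coding gene GRAPL lies wholly within all 3 SNORD3 spans. Exon positions are not given in the tables used here. Reads of these transcripts are called SNORD3 reads by position, and those of U3 genes cannot be told apart from those of other stretches of the spans. The RefSeq table used here gives no strand, so the SNORD3 transcripts are named by their listed strand and not as sense or antisense.

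**Figure D1:**
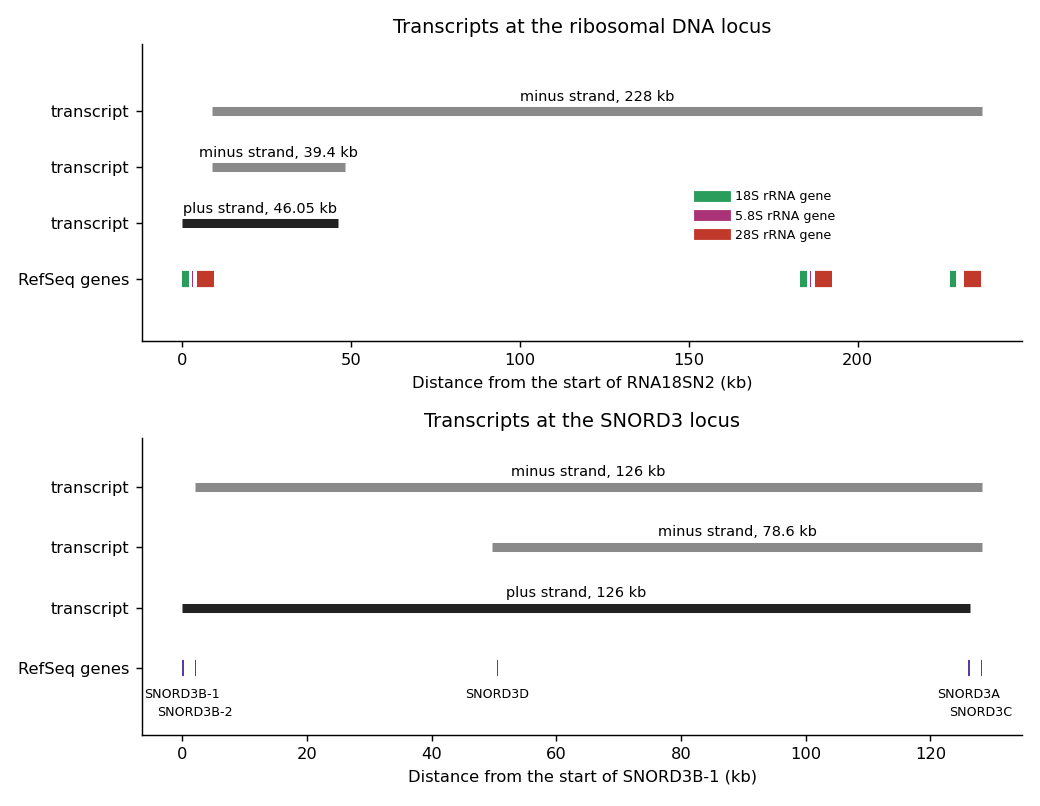
Spans of the 3 transcripts at the ribosomal DNA locus and the 3 at the SNORD3 locus, drawn as bars against the distance in kb from the start of RNA18SN2 (top) or SNORD3B-1 (bottom), with RefSeq rRNA or U3 genes in the lowest row. The 228 kb minus-strand transcript reaches from the end of 1 rRNA unit over 2 whole units, and the SNORD3 spans run between U3 genes.

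RefSeq lists 4 copies of the microRNA gene MIR6724 in the ribosomal DNA window, and the sequences of 2 of them were in the RefSeq table used here. They are shown as an example of sequence repeated within the 228 kb span, which holds 3 of the copies. Both other transcripts hold 1. The copies shown lie outside the 45S precursor genes, so they do not measure how alike the rRNA sequences are. MIR6724-2 is at chr21:8249505-8249596 and MIR6724-4 at chr21:8432530-8432621, both on the plus strand of GRCh38.p14. Capitals mark the mature arm in the hairpins (5′ to 3′) and the seed, bases 2 to 8, in the mature miRNA.
MIR6724-2: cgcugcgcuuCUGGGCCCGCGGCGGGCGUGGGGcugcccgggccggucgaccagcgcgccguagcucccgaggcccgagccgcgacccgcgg
MIR6724-4: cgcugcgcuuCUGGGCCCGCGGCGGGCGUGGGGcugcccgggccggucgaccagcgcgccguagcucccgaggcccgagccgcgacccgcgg
hsa-miR-6724-5p: cUGGGCCCgcggcgggcgugggg
The 92-base hairpins differed at 0 positions although they start 183 kb apart, and 83.7% of their bases were G or C. A read from within these hairpins cannot be placed on one copy rather than the other. The rRNA genes and the U3 genes are multigene families of near-identical copies, and how the authors' counting divided reads between copies is not given in the sources used here, so counts of single transcripts are uncertain. RefSeq sequences of the rRNA and U3 genes themselves are not shown.

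Reads over the 334 transcripts came to 2056854 (Input), 109658 (IgG) and 48763 (Flag-FAK). Without the ribosomal DNA locus 50624, 8777 and 4264 reads were left. The number of reads in the whole libraries is not given in the sources used here. FPKM is fragments per kilobase of transcript and per 1000000 fragments, as the authors computed it. The FPKM that 1 read stood for had a Flag-FAK to IgG ratio of 0.975 (median of 6 transcripts with at least 20 reads in both libraries). The IgG to Input ratio was 1.09 (median of 17). Equal FPKM thus stands for nearly equal reads of a transcript in all 3 libraries. If each transcript has the same length in all 3, the fragment totals used for FPKM were also nearly equal. The reads over the 334 transcripts were not, so their lower numbers in the precipitates do not reflect lower totals. Scaling to the 334 transcripts, used below, is therefore no correction for these totals. All intervals are exact 95% Clopper-Pearson intervals. They hold the counting error of reads alone and no spread between replicates. PCR duplicates count as separate reads without being separate molecules, so the intervals may be too narrow even for counting error. Whether the whole-number counts are counted reads or rounded estimates is not given in the sources used here, and the intervals treat them as counted reads.

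In every library the ribosomal DNA transcripts held most of the reads of the listed transcripts. These reads lay on opposite strands in Input and in the precipitates. The plus-strand, sense transcript had 0 Input reads, 100554 IgG reads and 44394 Flag-FAK reads. In FPKM these were 0, 22416 and 9652. It was the listed transcript with the most reads in both precipitates and was not detected in Input. There 0 of 2056854 reads allow a share of up to 0.000146% if 3 reads are taken as the limit. Taking 3 reads as the limit for Input, it was at least 36400.1-fold higher in IgG than in Input and at least 15762-fold higher in Flag-FAK. These values hold for this transcript alone, the only plus-strand one listed at the locus. Its identifier, MSTRG.20527.12, numbers it among several transcripts of its assembled gene. Reads on transcripts that are not listed cannot be seen, so Input is not shown to lack sense rRNA.

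The 228 kb minus-strand, antisense transcript had 1877252 Input reads, 327 IgG reads and 105 Flag-FAK reads, or 124885, 23.7 and 7.39 FPKM. By reads it ranked 1 in Input, and in the precipitates 5 (IgG) and 6 (Flag-FAK), where it was far below the sense transcript. The FPKM ratio of IgG to Input was 0.000190 (0.000170 to 0.000212), 5267-fold lower in IgG. In Flag-FAK it was 16908-fold lower than in Input.

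The 39.4 kb minus-strand transcript had 128978 reads and 15239 FPKM in Input, and 0 reads in both precipitates. It was at least 39588.5-fold lower in IgG than in Input. In Input it took 6.43% of the minus-strand reads of the locus (6.39% to 6.46%). In IgG it took 0 of 327 and in Flag-FAK 0 of 105. Taking 3 reads as the limit, these allow up to 0.917% and 2.86%, and the exact intervals reach 1.12% and 3.45%. The share in Input lay above what either precipitate allowed by counting error. The deposited reads of the minus strand were thus divided differently in Input and in each precipitate. Both transcripts share their start, and the shorter span lies within the longer. How reads were assigned between such overlapping transcripts is not given in the sources used here, and the intervals do not cover it.

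**Figure D2:**
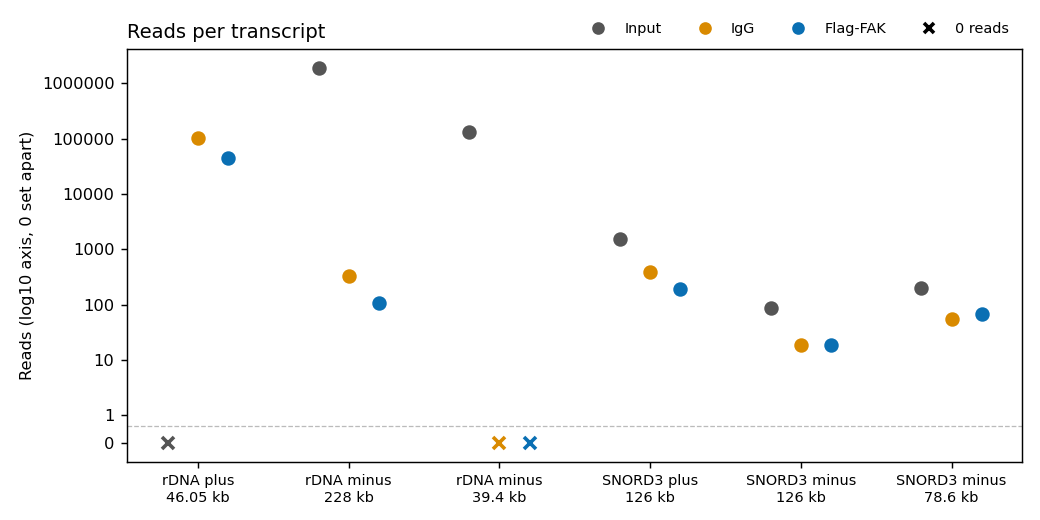
Reads of each of the 6 transcripts (log10 axis, crosses mark 0 reads) in Input, IgG and Flag-FAK, 1 library each. The plus-strand ribosomal DNA transcript has reads only in the precipitates, and the minus-strand ones hold 1877252 and 128978 reads in Input.

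By strand, the plus-strand share of the reads of the listed ribosomal DNA transcripts was 0% in Input. It was 99.7% in IgG (99.6% to 99.7%) and 99.8% in Flag-FAK (99.7% to 99.8%). The SNORD3 locus did not show this exchange. Its plus-strand share was 84.3% in Input (82.6% to 85.9%) and 83.8% in IgG (80.1% to 87.0%), with overlapping intervals. Whether the library kit kept the strand and whether counting used it are not given in the sources used here, and the cause of the exchange was not tested.

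Over both strands, the ribosomal DNA locus had 2006230 Input reads, 100881 IgG reads and 44499 Flag-FAK reads. These were 97.5%, 92.0% and 91.3% of the reads of all listed transcripts. As shares of summed FPKM the values lay closer, at 89.5%, 88.0% and 86.7%. The fold between libraries depended on the unit, because the transcripts that carried the reads differed between Input and the precipitates. In reads Input was 19.9-fold above IgG, whereas in FPKM it was 6.24-fold above. Relative to the reads outside both loci and outside 7SK, an abundant small nuclear RNA that regulates transcription elongation, there were 168 ribosomal DNA reads per read in Input, against 31.5 for IgG and 41.5 for Flag-FAK.

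Between both precipitates the sense and antisense ribosomal DNA transcripts were lower in Flag-FAK than in IgG on the deposited scale. The plus-strand transcript had a Flag-FAK to IgG ratio of 0.431 in FPKM (0.426 to 0.435). For the 228 kb minus-strand transcript it was 0.312 (0.248 to 0.389), so its interval lay below that of the sense transcript. The ratio of the locus sums was 0.430, or -1.22 on the log2 scale with a pseudocount of 0.1 FPKM. When each library was rescaled to a total of 1000000 FPKM over the 334 transcripts (TPM), the ratio of the sums was 0.985 (0.974 to 0.996). The locus itself held 88.0% (IgG) and 86.7% (Flag-FAK) of the summed FPKM. With shares this high in both, the TPM ratio could not lie far from 1, and its interval treats the totals as fixed. On totals outside the ribosomal DNA the ratio of the sums was 0.889 (0.879 to 0.899). Relative to the reads outside both loci and 7SK, given above, the direction turned: 41.5 (39.1 to 44.1) in Flag-FAK was above 31.5 (30.4 to 32.6) in IgG. The direction between the precipitates therefore depended on the scale. The order of both strands does not depend on the scale, since both ratios move by the same factor.

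The SNORD3 locus held far fewer reads than the ribosomal DNA. The plus-strand transcript NONHSAT146422.2, which reaches from SNORD3B-1 to SNORD3A, had 1536 Input reads, 387 IgG reads and 191 Flag-FAK reads, or 406, 112 and 53.6 FPKM. Its rank by reads was 5 in Input and 4 in each precipitate. The FPKM was lower in IgG than in Input and lower again in Flag-FAK, and the counting intervals of the ratios between neighbours, 0.275 (0.245 to 0.307) for IgG over Input and 0.481 (0.402 to 0.574) for Flag-FAK over IgG, lay below 1. On the TPM scale, explained above, the ratio of IgG over Input turned to 1.69 (1.504 to 1.886). That of Flag-FAK over IgG was 1.10 (0.921 to 1.31) with TPM and 0.993 (0.831 to 1.18) on totals outside the ribosomal DNA, and both intervals included 1.

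On deposited FPKM the minus-strand SNORD3 transcripts were lower in both precipitates than in Input and showed no detectable difference between the precipitates. NONHSAT146423.2, between SNORD3B-2 and SNORD3C, had 87 Input reads and 19 reads in each precipitate, or 37.2, 8.70 and 8.53 FPKM. Its Flag-FAK to IgG ratio was 0.980 (0.491 to 1.96), so a difference was not detectable at this depth. The 78.6 kb transcript that starts before SNORD3D had 199 Input reads, 56 IgG reads and 69 Flag-FAK reads, or 23.5, 7.21 and 8.65 FPKM. Its ratio was 1.20 (0.831 to 1.74), and again the interval included 1. Summed, the minus strand gave 75 reads in IgG and 88 in Flag-FAK and a ratio of 1.08 (0.784 to 1.49), above the interval of the plus strand. On the TPM scale the direction against Input turned for this sum. It was 1.61 (1.23 to 2.08) for IgG over Input and 3.98 (3.10 to 5.07) for Flag-FAK over Input. On totals outside the ribosomal DNA these were 1.41 (1.08 to 1.82) and 3.14 (2.45 to 4.00).

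The strand composition of the SNORD3 locus thus differed between both precipitates. The plus-strand share was 68.5% in Flag-FAK (62.7% to 73.9%), below the intervals of IgG and Input. In summed FPKM it was 75.7% in Flag-FAK against 87.5% in IgG and 87.0% in Input. The share compares reads within a library and does not depend on how libraries were scaled. Within the minus strand the 78.6 kb transcript took 69.6% of the reads in Input (63.9% to 74.9%), 74.7% in IgG (63.3% to 84.0%) and 78.4% in Flag-FAK (68.4% to 86.5%). These intervals overlap, and no difference in this division was detectable.

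**Figure D3:**
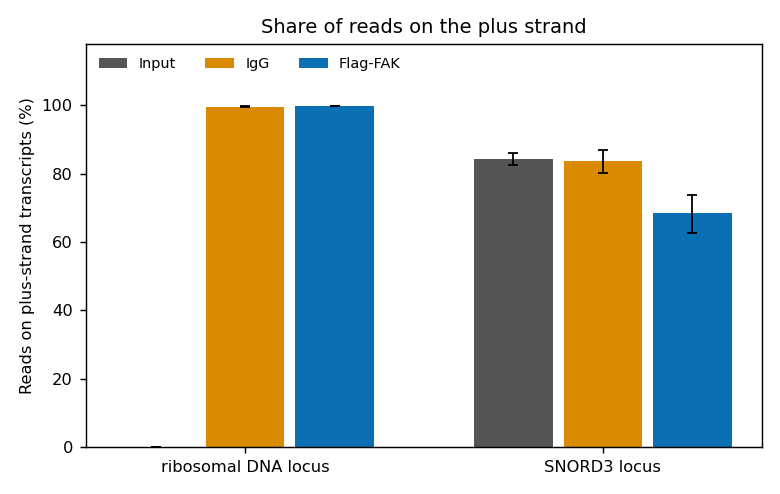
Share of reads on plus-strand transcripts (%) at the ribosomal DNA and SNORD3 loci in Input, IgG and Flag-FAK, with exact 95% Clopper-Pearson intervals of counting error. At the ribosomal DNA locus Input is at 0% and both precipitates are above 99%, while at the SNORD3 locus Input and IgG are alike and Flag-FAK is lower, at 68.5%.

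Over both strands the SNORD3 locus had 1822 Input reads, 462 IgG reads and 279 Flag-FAK reads. Its Flag-FAK to IgG ratio was 0.556 in FPKM (0.477 to 0.646), -0.85 on the log2 scale with the pseudocount. After rescaling to TPM it was 1.27 (1.09 to 1.48), and on totals outside the ribosomal DNA it was 1.15 (0.986 to 1.33). The direction for SNORD3 between the precipitates therefore turned with the scale. On the TPM scale the minus strand was 2.47-fold higher in Flag-FAK (1.79 to 3.41), whereas the interval of the plus strand included 1.

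**Figure D4:**
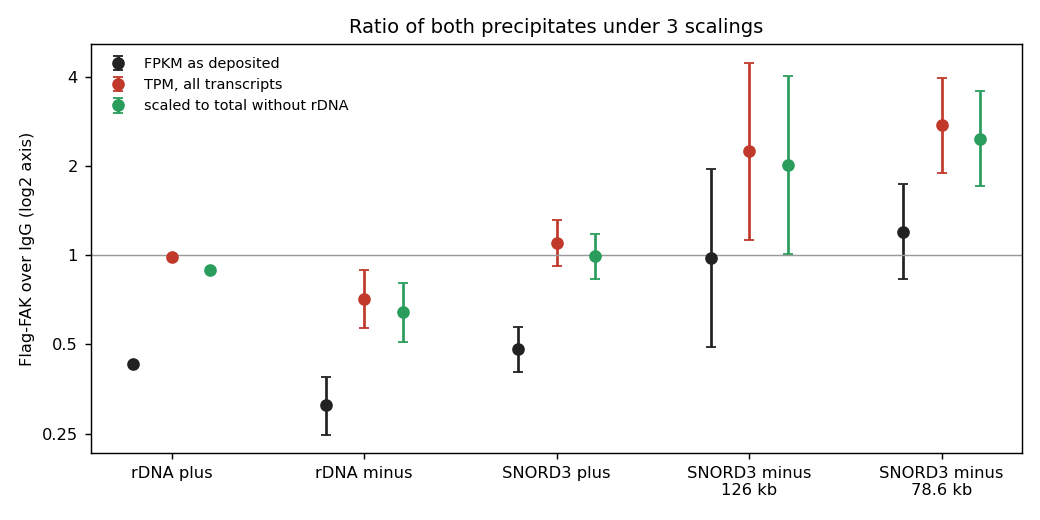
Flag-FAK to IgG ratio (log2 axis) of the transcripts with reads in both precipitates, on deposited FPKM, after TPM scaling and after scaling to the total without ribosomal DNA, with intervals of counting error. Each scale moves all points by one factor, so the SNORD3 minus-strand values stay above the plus-strand value and above both ribosomal DNA strands. The interval of the 126 kb minus-strand transcript overlaps that of the plus strand.

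As a share of all listed reads, the SNORD3 locus had 0.0886% in Input (0.0846% to 0.0927%), 0.421% in IgG (0.384% to 0.461%) and 0.572% in Flag-FAK (0.507% to 0.643%). The intervals do not overlap, but the totals are mostly ribosomal DNA reads. Among the reads outside the ribosomal DNA the shares were closer, at 3.60% in Input (3.44% to 3.77%), 5.26% in IgG (4.81% to 5.75%) and 6.54% in Flag-FAK (5.82% to 7.33%), and kept this order with intervals that do not overlap. SNORD3 was also set against the ribosomal DNA reads. These lay on the antisense transcripts in Input and almost all on the sense transcript in the precipitates, so the divisors were unlike transcripts. There were 0.908 SNORD3 reads per 1000 ribosomal DNA reads in Input (0.867 to 0.951). The number was 4.58 in IgG (4.17 to 5.02) and 6.27 in Flag-FAK (5.55 to 7.05). In summed FPKM these were 3.33, 5.68 and 7.33, in the same order. When 7SK was left out of the reference too, SNORD3 reads per 1000 other reads were 152 in Input (145 to 160), 144 in IgG (130 to 159) and 260 in Flag-FAK (227 to 297). By this measure Input and IgG did not differ beyond counting error and Flag-FAK was higher.

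The counts and FPKM together bound the length on which each transcript was counted, because reads per FPKM rise in proportion to length within a library. No transcript can be longer than its span, and the transcript with the highest reads per FPKM for its span sets the upper limit. Among transcripts with at least 20 reads, the 228 kb ribosomal DNA transcript came to at most 1588 nt in Input, 1615 nt in IgG and 1729 nt in Flag-FAK. The 46.05 kb sense transcript came to at most 525 nt in IgG and 560 nt in Flag-FAK, shorter than the 1869 bp of RNA18SN2 at which it starts. The 39.4 kb transcript came to at most 894 nt in Input. At the SNORD3 locus the plus-strand transcript came to at most 400 to 433 nt, the 78.6 kb one to 896 to 971 nt, and NONHSAT146423.2 to 247 nt in Input, close to the 217 bp of 1 U3 gene. The long spans thus stood for far shorter counted lengths. Each limit carries the counting error of the 1 transcript that sets it, which had 129 Input reads, 25 IgG reads or 20 Flag-FAK reads. In Input, 31 of 94 transcripts with at least 20 reads had a span over 10 times this limit, so such a gap also occurred outside both loci.

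Counted by transcript with at least 0.5 FPKM in either library, 5 of the 6 could be compared between the precipitates. Of these 3 were below 0.5-fold in Flag-FAK over IgG, beside 77.0% of all 135 transcripts compared. They were the plus-strand and the 228 kb minus-strand ribosomal DNA transcript and the plus-strand SNORD3 transcript. None of the 5 was above 2-fold, beside 14.1% of all. Against Input, 5 of 6 were below 0.5-fold in IgG, beside 78.8% of all, and 5 of 6 in Flag-FAK, beside 92.7%. The sense rRNA transcript was the 1 above 2-fold in each case, beside 13.4% of all transcripts for IgG and 5.33% for Flag-FAK. On the TPM scale 2 of the 5 were above 2-fold in Flag-FAK over IgG, the minus-strand SNORD3 transcripts, beside 27 of all 135 (20%), and 0 were below 0.5-fold, beside 65.9%. On totals outside the ribosomal DNA these were also 2 and 0, beside 19.3% and 68.1%. With 5 or 6 transcripts, nothing particular to these loci is read from the counts. IgG over Input and Flag-FAK over Input share the Input library.

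Other RNAs of rRNA maturation were looked up by position. Of 38 RefSeq genes for rRNA or processing RNAs, 18 were overlapped by a listed transcript, and 17 of these were the rRNA and U3 genes of both loci. The exception was SNORD22, a snoRNA inside the host gene SNHG1, whose 3 transcripts had 133 Input reads, 67 IgG reads and 17 Flag-FAK reads. Of 30 snoRNA host genes, 11 were overlapped, by 21 transcripts. Among their 13 transcripts past the minimum, 10 were below 0.5-fold in Flag-FAK over IgG, beside 77.0% of all 135 transcripts compared. Above 2-fold was 1, beside 14.1% of all. Nothing particular to the hosts is read from these counts. The median of their ratios, taken with the pseudocount of 0.1 FPKM, was 0.0773, beside 0.0807 over all transcripts compared. For a transcript without Flag-FAK reads this ratio is set by the pseudocount and the IgG FPKM. Of all listed transcripts, 150 had reads in IgG and 67 in Flag-FAK, so these medians do not measure a fold. In IgG and Flag-FAK the hosts together had 590 and 140 reads, against 462 and 279 SNORD3 reads.

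By likeness of the log2 ratios Flag-FAK over IgG and IgG over Input, the transcript nearest to the ribosomal DNA sum among 119 with at least 20 reads over the 3 libraries was lnc-FBXO9-1:1, which overlaps the 7SK gene RN7SK. Its ratios were -0.85 and -2.73 on the log2 scale, against -1.22 and -2.64. Its reads were 36842 in Input, against 5108 in IgG and 2913 in Flag-FAK. Next came a transcript of SNHG1 with 25, 2 and 1 reads and NALT1:1 with 34, 4 and 0. Nearest to the SNORD3 sum, at -0.85 and -1.87, was an unnamed transcript in MCF2L with 19, 6 and 5 reads and ratios of -0.36 and -1.54. MMP24-AS1:2 and a further SNHG1 transcript followed. The likeness rests on 3 libraries, and all of these but 7SK had under 100 reads in every library.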

How the data were processed

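RNA of 3 libraries (Input, IgG, Flag-FAK) was retrieved from 1 cell line and sequenced. The authors deposited, per transcript, FPKM and whole-number read counts, together with coding potential scores (CPC, CNCI) and a CPAT coding probability given as a fraction between 0 and 1. StringTie and GRCh38 are named in the submitters' processing notes; aligner, versions, strand setting and treatment of reads with several positions are not given in the sources used here, and shared reads between repeat units could move counts between transcripts. The 7007 lines of each file hold 334 transcripts repeated per predicted target; repeats held identical values and were used once. Members, gene lists and tests were chosen with earlier results of these data known. Transcripts with at least 100 reads in a library were to be given in full; the 1 member below this limit, with at most 87 reads, is given as well. Ratios were taken on FPKM as deposited, log2 ratios with a pseudocount of 0.1, and counts of transcripts past 2-fold on these log2 ratios with a minimum of 0.5 FPKM. For a count of 0 the limit was set at 3 reads. Alternatives were other pseudocounts, TPM, totals without ribosomal DNA, reads, reads outside both loci and 7SK, other minimum values and Input in place of IgG. Functions were tested on simulated data. Gene positions came from RefSeq GRCh38.p14. Values were computed in Python 3.11.15 with scipy 1.17.1 for intervals, pandas 2.3.3 and numpy 2.4.6, and drawn with matplotlib 3.10.9.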

Additional observations from a re-analysis of the deposited data

How the results depend on the processing

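No paired analysis was possible because there is only 1 library for each condition. In the precipitates the 39.4 kb ribosomal DNA transcript had 0 reads and so no ratio, and the minus-strand SNORD3 transcripts had 19 to 69 reads. The log2 ratio of Flag-FAK over IgG for the ribosomal DNA sum was -1.22. With TPM, whose total is mostly this locus, it became -0.021. It was -0.17 with totals without ribosomal DNA, -3.86 with Input in place of IgG and -1.18 as a ratio of reads. Against Input, an alternative added once the data had been seen, it was -0.046 with TPM and -0.39 with totals without ribosomal DNA. For the SNORD3 sum the log2 ratio of -0.85 turned to 0.35 with TPM and 0.20 with totals without ribosomal DNA, because these scales add 1.19 and 1.05 to every log2 ratio. It was -2.72 with Input in place of IgG, and against Input 1.09 with TPM and 0.75 with totals without ribosomal DNA, both also added later. A ratio of reads relative to those outside both loci and 7SK, likewise added later, turned both sums, to 0.40 for ribosomal DNA and 0.85 for SNORD3. Pseudocounts of 0.01 and 1 left both sums within their counting intervals.

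In summed FPKM the ribosomal DNA share was 89.5% for Input, 88.0% for IgG and 86.7% for Flag-FAK, and without 7SK in the total of reads it was 99.3%, 96.5% and 97.1%. The SNORD3 share was 0.298% in Input and 0.4997% in IgG in summed FPKM, and 3.60%, 5.26% and 6.54% of reads with totals without ribosomal DNA. The plus-strand share in summed FPKM was 99.9% at the ribosomal DNA locus in both precipitates, and 87.0%, 87.5% and 75.7% at the SNORD3 locus in Input, IgG and Flag-FAK. Without the largest transcript of each library it was 0% at both loci, since that transcript was the plus-strand one wherever the plus strand had reads. Other minimum values left the counts of transcripts past 2-fold as they were. SNORD3 per 1000 of ribosomal DNA was 3.33, 5.68 and 7.33 in summed FPKM. With TPM 2 of 5 transcripts were above 2-fold, beside 27 of all 135 compared, and 0 below 0.5-fold, beside 89 of 135, in place of 0 and 3. With totals without ribosomal DNA these were also 2 and 0, beside 26 and 92 of 135. With Input in place of IgG the counts were 1 and 5 of 6, beside 5.33% and 92.7% of all 300 transcripts compared.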

Other observations

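The scores that the authors used to call the transcripts noncoding differed between the strands. CPC, which is negative for noncoding transcripts, was -1.51 for the plus-strand ribosomal DNA transcript, and 5 of the 334 transcripts had a lower value. The minus-strand transcripts had -0.77 and -0.75. The CPAT coding probability of the plus-strand transcript was 0.265 and exceeded that of 315 transcripts, whereas the minus-strand transcripts had 0.0115 and 0.0119, below the median of 0.0270. At the SNORD3 locus the CPAT probabilities were 0.00778, 0.0296 and 0.0287 for the plus-strand, the 126 kb minus-strand and the 78.6 kb transcript.

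The deposited tables also list predicted target genes. Both 126 kb SNORD3 transcripts were assigned the neighbouring genes FAM83G and GRAP in cis and 0 genes in trans, and the 78.6 kb transcript GRAP in cis and 30 genes in trans. The ribosomal DNA transcripts had 0 cis targets and 4, 30 and 9 trans targets for the 46.05 kb, 39.4 kb and 228 kb transcripts, beside a median of 10 targets over all transcripts.

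Relative to 7SK, the SNORD3 locus had 49.5 reads per 1000 in Input (47.2 to 51.8), 90.4 in IgG (82.1 to 99.5) and 95.8 in Flag-FAK (84.4 to 108). The intervals of both precipitates overlap, and Input lies below both.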
